A study of Mus musculus with 18 samples.

Results

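Nfia, Nfib, Nfic and Nfix are the 4 mouse genes of the nuclear factor I family, and their DNA methylation was followed in the gonadal fat, the hypothalamus and the liver of young mice whose dams had received bisphenol A (BPA) or its vehicle. BPA is used to make polycarbonate plastic and can act weakly on oestrogen receptors. The CpG sites described are those in the 4 gene bodies or within 5 kb of them on GRCm38 that were covered by at least 10 reads in both the control and the BPA pool of a tissue. These were 1408 of 1876099 tested nuclear sites in adipose, 1212 of 1569349 in hypothalamus and 1196 of 1628817 in liver. A further 21, 58 and 45 listed sites of the genes fell below the minimum. The genes were chosen because of sites in Nfic that differed between the liver pools, so the liver contrast at these genes is given as a description and not as a test.

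All 18 samples came from male C57BL/6 offspring at 3 weeks of age. The control group of each tissue comprised 3 samples labelled WT, whose dams were given corn oil alone. The BPA group of each tissue comprised 3 samples whose dams were given BPA in corn oil by oral gavage, at 5 mg per kg per day from day 1 to day 20 after conception. Control offspring descended from 3 litters and BPA offspring from 4, but which litter a sample belongs to was not among the labels used here. Both groups shared the strain, the low-isoflavone breeding diet of the dams, the polycarbonate-free housing and the standard chow after birth. Methylation was read by reduced representation bisulfite sequencing, in which MspI cuts at CCGG and unmethylated cytosines are converted, so that CpG-rich fragments are covered and most isolated CpGs are not.

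The deposited tables join the 3 samples of a tissue and treatment into 1 pool. Every level below is therefore the authors' pooled value, there is no spread between animals, and every p-value compares the reads of 2 pools. The pool numbered 0 was read as control because a label names control before BPA. If that order were reversed, every direction given for BPA would turn. Each tissue is a mixture of cell types, and a different share of a cell type and a different methylation within it cannot be told apart.

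Nuclear factor I proteins bind DNA as dimers at a palindrome built from TTGGC and its complement, and they both activate and repress transcription. In the developing brain Nfia, Nfib and Nfix drive the switch from neural progenitors to glia. Nfia is also known for promoting the brown fat programme, and Nfib for lung maturation and for opening chromatin in hair follicle stem cells and tumours. Nfic is known for tooth root and bone formation, and Nfix for the passage from embryonic to fetal muscle. Methylation in a CpG-rich start region usually accompanies a silent promoter, whereas low methylation inside a gene body often marks an enhancer in use in that tissue.

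The member genes lie at chr4:97578066-98118876 (Nfia), chr4:82290173-82506751 (Nfib), chr10:81396191-81431919 (Nfic) and chr8:84704712-84801238 (Nfix). RefSeq on GRCm38.p6 supplied start windows of 300 bases, 250 before and 50 after a transcript start, for Nfia (1 window), Nfic (1) and Nfix (4). The windows below are shown because they are the start windows of these genes that held CpGs covered by at least 10 reads in all 6 pools, and both were less methylated in hypothalamus than in the other tissues. The covered CpGs are in capitals and each sequence is written 5′ to 3′ on the strand of the gene. The Nfia window lies at chr4:97581693-97581992 on the plus strand, and the Nfix window at chr8:84773361-84773660 on the minus strand. Both are internal start windows, inside the gene positions given above and away from the outer 5′ end (97578066 for Nfia, 84801238 for Nfix).
Nfia: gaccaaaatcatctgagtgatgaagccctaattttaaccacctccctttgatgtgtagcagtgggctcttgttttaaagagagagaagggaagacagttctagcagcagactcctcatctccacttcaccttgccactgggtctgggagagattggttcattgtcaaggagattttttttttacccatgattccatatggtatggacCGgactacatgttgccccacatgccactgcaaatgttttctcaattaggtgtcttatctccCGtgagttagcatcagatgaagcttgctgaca
Nfix: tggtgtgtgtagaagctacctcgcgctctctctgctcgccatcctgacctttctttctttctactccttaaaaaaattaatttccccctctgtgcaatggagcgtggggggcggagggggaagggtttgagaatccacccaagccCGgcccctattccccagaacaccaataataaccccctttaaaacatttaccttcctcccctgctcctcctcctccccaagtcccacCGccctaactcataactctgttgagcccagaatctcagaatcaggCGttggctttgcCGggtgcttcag

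The Nfia window holds 2 CpGs, against a median of 7 over all RefSeq start windows, and both were covered. The first, at position 97581900, was 65.3% methylated in control adipose, 39.3% in control hypothalamus and 58.0% in control liver, and 68.5%, 33.3% and 60.9% in the BPA pools of the same tissues. The second, at 97581961, was 82.9%, 47.6% and 62.4% methylated in the control pools and 83.3%, 46.8% and 60.9% in the BPA pools. Each was covered by 206 to 359 reads. At both sites hypothalamus was lowest and adipose highest, whichever treatment was looked at. The Nfix window has 9 CpGs, of which 4 were covered. Over these 4 sites together, 36.9% of reads were methylated in control adipose, 8.70% in control hypothalamus and 20.3% in control liver, against 32.9%, 9.59% and 19.5% with BPA. Adipose exceeded liver here and hypothalamus was again lowest. The other 3 Nfix windows and the Nfic window, which has 24 CpGs, held no CpG covered to that depth in all pools.

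The binding motif of the family was searched in these windows on both strands. TTGGC, which is contained in the longer palindrome, occurred in 46.7% of 32851 RefSeq start windows of this length. The printed Nfia window has no match, and the printed Nfix window has 1, directly after the third CpG in capitals. The full palindrome, TTGGC and its complement GCCAA with 5 bases of any kind between them, occurred in 12 of all windows (0.0365%) and in none of the 6 windows of the member genes. These are matches of letters in a short window and no measurement of binding.

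The 4 genes differed in their level and in which tissue was lowest. Levels were computed from the reads summed over the sites covered in all 6 pools, and exact 95% Clopper-Pearson intervals for counting error were at most 0.63 percentage points wide on either side. Nfia, over 280 sites, was 23.3% methylated in the control and 23% in the BPA pool of adipose, 19.5% and 18.9% for hypothalamus, and 22.3% and 22.9% for liver. Nfib, over 191 sites, was lowest in adipose, with 18.7% and 19.6%, against 28.0% and 26.2% in hypothalamus and 26.9% and 27.2% in liver. In these sums hypothalamus and liver had no fixed order at Nfib, as hypothalamus was the higher in the control pools and liver in the BPA pools. Nfic, over 241 sites, reached 30.9% and 30.3% in adipose and 31.8% and 35.0% in liver, above the 26.3% and 25.6% of hypothalamus. By these sums of reads, the step of Nfic in liver was the largest between treatments of the 12 gene and tissue pairs. That sum includes the Nfic sites that led to the choice of these genes, so its rank is a description only. Nfix, over 436 sites, was lowest in hypothalamus with 23% and 23.8%, against 29.5% and 29.9% in adipose and 33.4% and 33.9% in liver.

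When each CpG counted equally instead of each read, the order of tissues changed at Nfia, Nfib and Nfic. Mean site levels of Nfia in control pools were then 22.3% in adipose, 22.3% in hypothalamus and 22.0% in liver, and those of Nfic were 27.3%, 27.6% and 31.2%. The step of Nfic in liver shrank to 31.2% against 32.0%, less than that of Nfix in liver (37.3% against 36.4%). Hypothalamus was above liver at Nfib in both treatments, with 16.8% and 17.3% against 14.7% and 14.6%. The low position of adipose at Nfib (12.7%, 16.8% and 14.7%) and of hypothalamus at Nfix (32.8%, 28.1% and 37.3%) remained in the control pools. Most CpGs of Nfia and Nfib were nearly unmethylated. In control liver 199 of the 280 Nfia sites and 161 of the 191 Nfib sites were below 20%, whereas 190 of the 436 Nfix sites were between 20% and 80%. Nfix had 243 such intermediate sites in control adipose and 172 in control hypothalamus.

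Among 14835 other genes with at least 20 sites covered in all pools, those whose 6 pooled levels were closest were picked by the root mean square difference. Nearest to Nfia were Ube2g2 (0.261 percentage points), Ube2e2 (0.498) and Prmt8 (0.509). Nearest to Nfib were Siva1 (0.803), Nkiras2 (1.05) and Ethe1 (1.47). Bmp2k (0.790), Adam12 (0.830) and Rec114 (0.842) were nearest to Nfic, and Klhl5 (0.713), Tmem8b (1.12) and Dipk1b (1.15) to Nfix. The likeness rests on 6 pools and on sums over sites that differ in position and number.

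Differences between tissues were frequent in these genes. A site was called between tissues when Fisher's exact test on the reads of 2 pools, adjusted over all nuclear sites by the Benjamini-Hochberg procedure, gave p under 0.05 and the levels were 20 percentage points or more apart. Between the control pools of hypothalamus and adipose, 162 of 1231 sites of the 4 genes were called (13.2%, against 6.62% of all tested sites). In 67 of them hypothalamus was higher (4.73% of all tested sites were so) and in 95 lower (1.90%). Between liver and adipose, 200 of 1214 were called (16.5% against 7.63%), 142 higher in liver (4.59% of all tested sites) and 58 lower (3.04%). Between liver and hypothalamus, 250 of 1181 were called (21.2% against 8.18%), 175 higher in liver (3.38%) and 75 lower (4.80%). Neighbouring CpGs share fragments and reads, so these sites are not independent of each other.

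Of the 4 genes, Nfix had the largest share of its sites called in each of the 3 comparisons. Of its sites 21.7% were called between hypothalamus and adipose, 20.3% between liver and adipose, and 29.0% between liver and hypothalamus. In Nfix hypothalamus was below liver at 111 sites and above it at 22. Nfib stood at the other end in both comparisons with liver, with 5.76% called in each, below the share of all tested sites. Between hypothalamus and adipose Nfib had 20 called sites, all higher in hypothalamus. Nfic had 4.62% called between hypothalamus and adipose, but 19.6% between liver and adipose and 23.8% between liver and hypothalamus. Nfia lay between, with 8.25%, 14.6% and 16.7%.

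The BPA pools, which come from other samples than the control pools, gave a second measurement of each tissue difference. Of the 162 sites called between the control pools of hypothalamus and adipose, 110 were also called in the same direction between the BPA pools. For liver and adipose this held for 137 of the 199 sites that could be tested, and for liver and hypothalamus for 174 of 248. Of all tested sites, 6.62%, 7.38% and 7.97% were called in these 3 comparisons of BPA pools. These shares, 67.9%, 68.8% and 70.2%, were close to those over all called sites of the tables (66.7%, 68.7% and 71.1%). The sign was kept at 159 of 162, 197 of 199 and 245 of 248 sites. Nfic between liver and hypothalamus had 58 called sites in the control pools and 29 in the BPA pools, and 22 of the 58 were called in both. Whether this loss differed from that in the other genes was not tested.

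**Figure D1:**
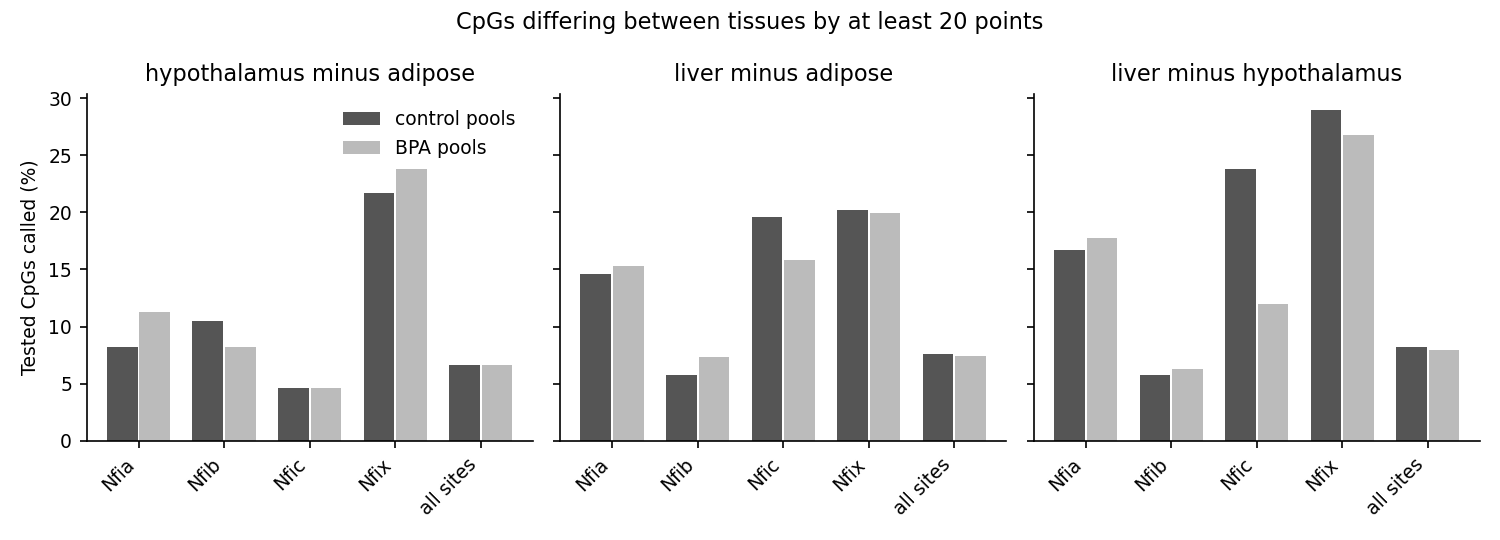
Share of tested CpGs (%, y axis) called different between 2 tissues by at least 20 percentage points, for each nuclear factor I gene and for all tested sites (x axis), with dark bars for control pools and light bars for BPA pools. Nfix had the highest bars in every comparison, and the Nfic bars between liver and hypothalamus dropped from 58 to 29 called sites.

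Many called sites lay in runs, but how often called sites form runs over all tested sites was not computed. Runs of at least 3 called sites of 1 direction with gaps of at most 200 bp numbered 71 between control pools, of which 33 lay in Nfix, 19 in Nfia, 13 in Nfic and 6 in Nfib. These counts add up the 3 pairs of tissues, so a stretch called in more than 1 pair is counted more than once. Runs of at least 5 called sites were joined where they overlapped, and shorter runs were left out. The 20 regions so formed are described next. The minimum of 5 was set after the values had been seen. Hypothalamus was the lowest tissue in 8 of the 20 regions, adipose in 7 and liver in 5. In the BPA pools the same tissue was lowest, and the same tissue highest, in 20 of 20 regions. The range between tissues in the BPA pools had a median of 33.1 percentage points, against a median of 5.57 for the largest difference between treatments within a tissue, and it was the larger of the 2 in 19 of 20 regions. The regions were picked for tissue differences between control pools, so this comparison favoured the tissue range and does not weigh tissue against treatment. For the same reason, tissue orders given below for control pools were in part fixed by the choice of regions.

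**Figure D2:**
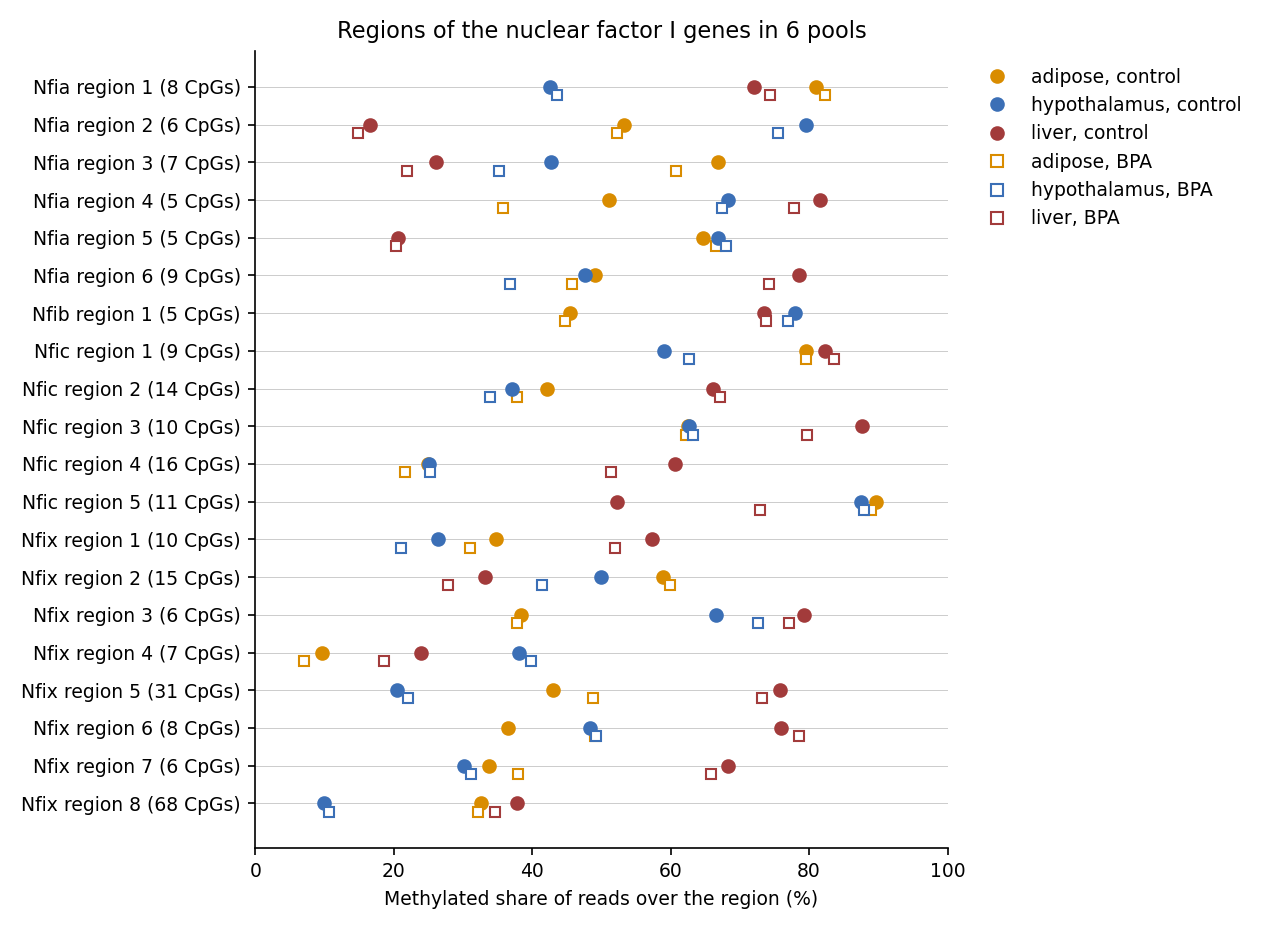
Methylated share of reads (%, x axis) over each of the 20 regions of at least 5 called CpGs (rows, numbered along the chromosome within each gene), with filled circles for control pools, open squares for BPA pools and a colour per tissue. Filled and open marks of a tissue lie close together in most rows, and the liver marks of the fifth Nfic region (52.2% and 72.9%) are the farthest apart.

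Single CpGs with the largest called difference between control pools were as far apart as the regions. In Nfia, 97948586 was methylated in 81.4% of 145 adipose reads and 20% of 55 hypothalamus reads, 98004951 was 77.9% of 199 in adipose and 19.2% of 104 in liver, and 97814550 was 89.7% of 29 in hypothalamus and 12.7% of 126 in liver. In Nfib, 82467813 was 28.6% of 98 in adipose and 77.0% of 74 in hypothalamus. At Nfic, 81395861, which lies outside the gene body, was 92.3% of 65 in adipose and 52% of 25 in hypothalamus. Inside the gene, 81407621 was 13.6% of 118 in adipose and 67.3% of 55 in liver. Adipose and hypothalamus thus exchanged places between these genes. In Nfix, 84785448 was 61.6% in adipose and 16.2% in hypothalamus, and 84731502 was 11.6% of 43 in adipose and 85% of 20 in liver.

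In Nfia, the gene of glial and brown fat differentiation, the first region spanned chr4:97581900-97582087 and reached into the start window printed above. It also lies in the noncoding gene E130114P18Rik. Over its 8 CpGs, 42.6% of reads were methylated in control and 43.6% in BPA hypothalamus, against 80.9% and 82.3% in adipose and 72.0% and 74.3% in liver. All 8 sites were lowest in hypothalamus in both treatments. They had been picked as called lower in control hypothalamus than in control adipose, so that order was fixed in the control pools. Control levels were 32.9% to 50% in hypothalamus, 65.3% to 94.6% in adipose and 58.0% to 85.8% in liver. In the BPA pools, levels in hypothalamus (31.1% to 51.4%) did not overlap those in adipose (68.5% to 95.2%) or liver (60.9% to 85.3%). Within this region the CpG at 97582015 was 43.8% methylated of 162 reads in control hypothalamus and 93.0% of 271 in control adipose.

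Deeper in Nfia, 3 regions were low in liver. At chr4:97814519-97814797 (6 CpGs), liver had 16.5% in the control and 14.8% in the BPA pool, adipose 53.3% and 52.3%, and hypothalamus 79.5% and 75.5%. The 3 tissues thus held 3 separate levels, and both treatments gave the same order. At chr4:97910933-97911046 (7 CpGs) liver had 26.1% and 21.9%, hypothalamus 42.7% and 35.2%, and adipose 66.9% and 60.8%. At chr4:98004909-98005174 (5 CpGs) liver had 20.5% and 20.3%, while adipose (64.6% and 66.6%) and hypothalamus (66.9% and 68.0%) lay close together. Liver was instead the highest tissue at chr4:98102844-98103087 (9 CpGs), with 78.5% and 74.2%, against 49.1% and 45.8% in adipose and 47.6% and 36.8% in hypothalamus. Low and high liver regions therefore occurred within 1 gene.

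Nfib, a gene of lung and glial maturation, had 1 region of this size, at chr4:82439944-82440047 (5 CpGs). Adipose was low there, with 45.4% and 44.8%, against 77.9% and 77.0% in hypothalamus and 73.5% and 73.8% in liver. The largest called difference of Nfib between control liver and control adipose was at a single CpG, 82392040. It was 32.3% methylated of 378 reads in control liver, 89.9% in control adipose and 92.2% in control hypothalamus. In BPA liver the same CpG was 41.8% methylated of 330 reads, and it was not called between the liver pools. At 82508347, which lies outside the gene body, hypothalamus was high, with 53.5% in the control and 47.0% in the BPA pool. Adipose had 9.63% and 13.5% there, and liver 5.26% and 6.30%.

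In Nfix, whose protein takes part in neural progenitor and muscle maturation, the 2 regions with the most CpGs were low in hypothalamus. At chr8:84771865-84772332, inside the gene, 31 CpGs were covered. Of their reads 20.5% were methylated in control and 22.0% in BPA hypothalamus, 43.0% and 48.8% in adipose, and 75.8% and 73.2% in liver. Hypothalamus was the lowest tissue at 29 of the 31 sites in the control pools and at 30 in the BPA pools, and liver the highest at 28 and 27. The CpG at 84772276 was 3.05% methylated of 131 reads in control hypothalamus and 2.42% of 124 in BPA hypothalamus. In liver it was 85.4% methylated of 96 control reads and 61.8% of 123 BPA reads, and in adipose 30.5% of 223 and 42.4% of 328.

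The longest region lay at chr8:84784480-84785603, with 68 CpGs over 1124 bp. Hypothalamus had 9.95% of reads methylated in the control and 10.6% in the BPA pool, adipose 32.6% and 32.1%, and liver 37.8% and 34.6%. At 65 of the 68 sites hypothalamus was the lowest tissue in the control pools, and at 66 in the BPA pools. Adipose and liver were not ordered from site to site, since liver was highest at 44 and adipose at 24 of the control sites. Some of these sites were thinly covered in liver, with as few as 12 control reads.

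**Figure D3:**
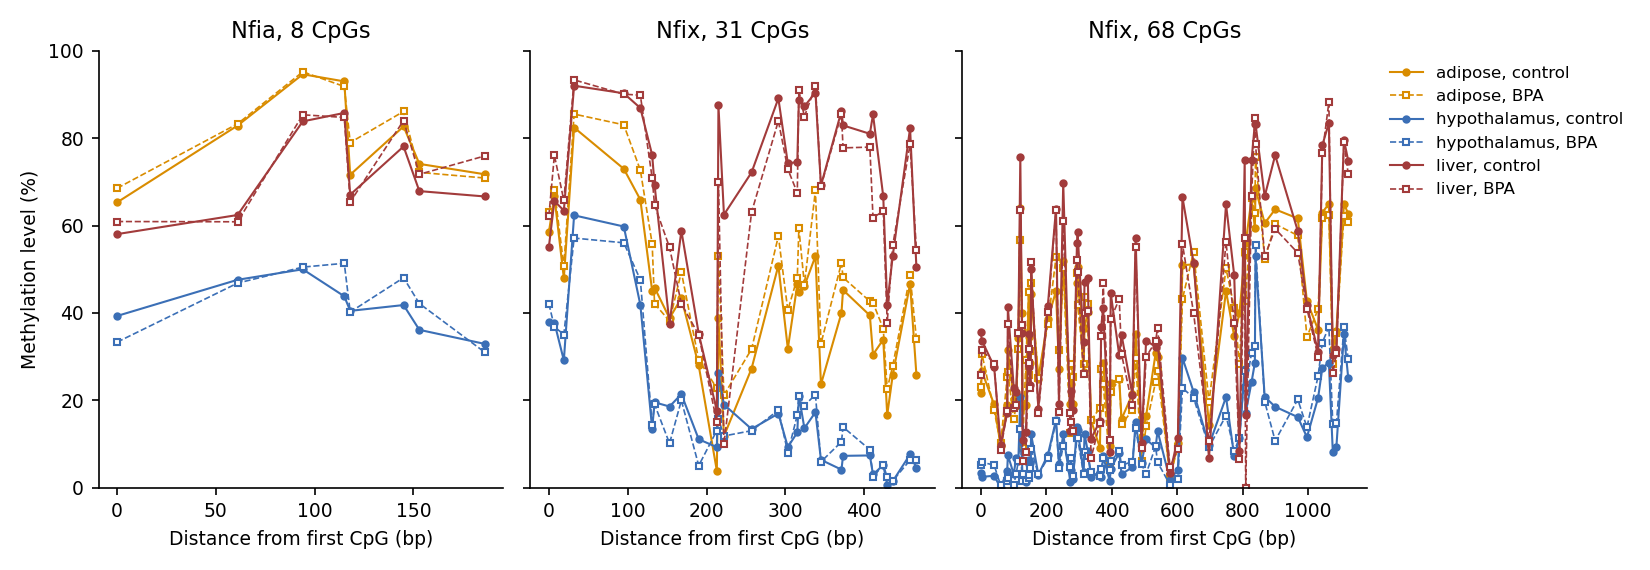
Methylation level (%, y axis) of each CpG against its distance in bp from the first CpG of the region (x axis) in the Nfia region that reaches into the internal start window and in the 2 longest Nfix regions, with filled circles and solid lines for control pools and open squares and dashed lines for BPA pools. The blue hypothalamus lines run lowest, at 8 of 8, 29 of 31 and 65 of 68 sites in the control pools, whose tissue calls were used to pick the regions. In the BPA pools they run lowest at 8 of 8, 30 of 31 and 66 of 68 sites.

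Other Nfix regions were low in adipose or liver. At chr8:84722520-84722685 (6 CpGs) adipose had 38.4% and 37.8%, hypothalamus 66.5% and 72.6%, and liver 79.2% and 77.1%. At chr8:84723039-84723339 (7 CpGs), which overlaps the start window of the noncoding gene G430095P16Rik, adipose had 9.65% and 7.02%, liver 23.9% and 18.5%, and hypothalamus 38.1% and 39.9%. Liver was lowest at chr8:84716060-84716357 (15 CpGs), with 33.2% and 27.8%, against 58.9% and 59.9% in adipose and 50% and 41.4% in hypothalamus. Nfix therefore held regions low in each of the 3 tissues within its gene body.

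In Nfic, the gene of tooth root and bone formation, liver was the highest tissue in the regions toward lower coordinates, by differing margins. At chr10:81407358-81407774 (16 CpGs), liver had 60.6% in the control and 51.4% in the BPA pool, against 24.9% and 21.6% in adipose and 25% and 25.3% in hypothalamus. At chr10:81401051-81401700 (14 CpGs), liver had 66.1% and 67.2%, adipose 42.1% and 37.9%, and hypothalamus 37.1% and 33.9%. In the first of these the run of 10 sites called between liver and hypothalamus kept 1 call in the BPA pools, and in the second the run of 11 sites kept 11. At chr10:81400463-81400631 (9 CpGs) liver (82.3% and 83.5%) lay close to adipose (79.5% in both pools), and hypothalamus was low (59.0% and 62.7%). The Nfic sites were covered by a median of 53 reads in control hypothalamus, against 107 at Nfix.

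The fifth Nfic region, at chr10:81420349-81420503, lies inside the gene and has 11 CpGs. It was the region in which the liver pools differed, and it was the basis for choosing these genes. Control liver was the lowest of the pools there, with site levels from 29.9% to 72.5% (median 51.2%). BPA liver ranged from 54.5% to 89.4% (median 73.8%). Control adipose ranged from 80.3% to 97.4% (median 92.3%), BPA adipose from 82.6% to 95.9% (87.8%), control hypothalamus from 81.8% to 94.3% (88.6%) and BPA hypothalamus from 77.9% to 95.6% (89.7%). The range of BPA liver overlapped those of adipose and hypothalamus only across different CpGs. At 81420479 BPA liver (89.4%) was above control hypothalamus (88.6%), and at every other CpG it was below all 4 of these pools. Over the region, 72.9% of reads were methylated in BPA liver. Control and BPA adipose had 89.6% and 89.0%, and control and BPA hypothalamus 87.5% and 88.0%. Control liver lay lowest, with 52.2%.

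All 11 CpGs of the block were higher in BPA than in control liver, by 14.8 to 28.8 percentage points with a median of 20.3. The 7 that were called in liver were the only called sites of the member genes in that tissue (7 of 1196, against 0.0259% of all tested sites, with 0.0181% higher and 0.0078% lower in BPA). They begin at 81420367, and the 4 CpGs of the block that were not called (81420349, 81420355, 81420464 and 81420474) had adjusted p of 0.314, 0.105, 0.0709 and 0.0977. The CpG with the largest difference, at 81420380, was 45% methylated of 242 reads in control and 73.8% of 168 in BPA liver. In adipose 3 of the 11 CpGs were higher with BPA, with differences from -4.94 to 5.22 points, and in hypothalamus 7 of 11, from -6.57 to 4.99. None of these 22 was called, and their coverage was 138 to 471 reads.

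**Figure D4:**
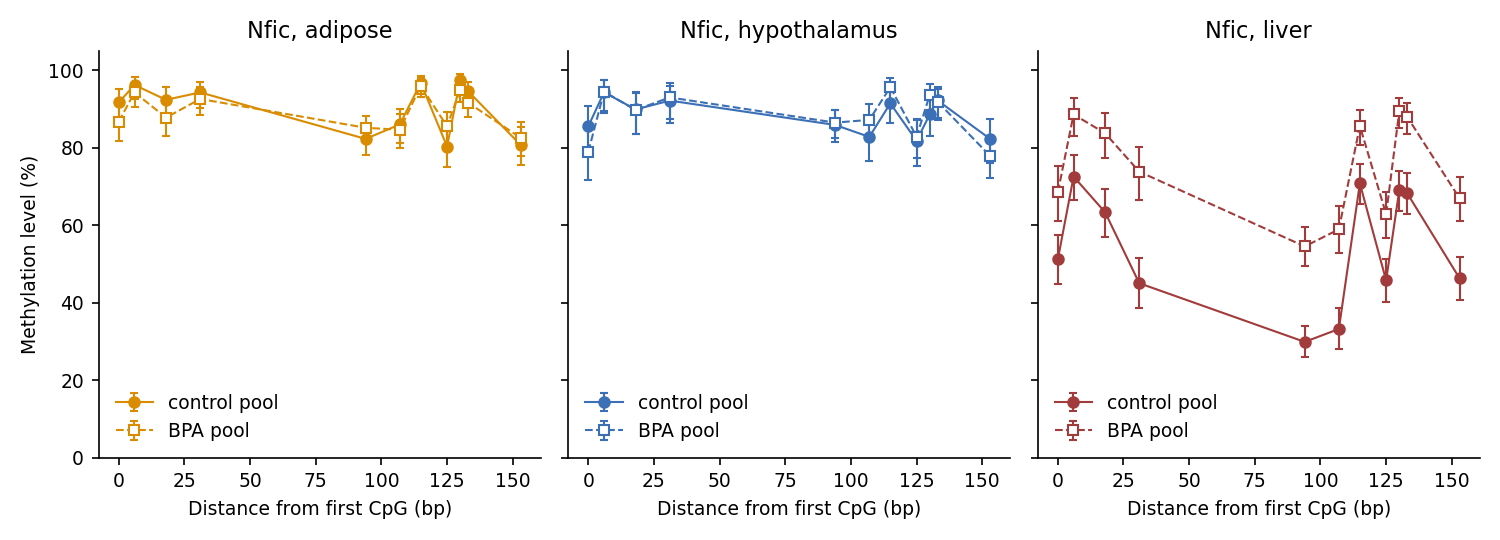
Methylation level (%, y axis) of the 11 CpGs of the Nfic block against their distance in bp from the first (x axis), with a panel per tissue, filled circles for the control pool, open squares for the BPA pool and bars for exact 95% intervals of counting error. The 2 lines overlap in adipose and hypothalamus, and in liver the BPA line lies above the control line at all 11 sites.

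Fewer CpGs of the block were called between tissues in the BPA pools than in the control pools. All 11 CpGs were called lower in control liver than in control adipose and 10 lower than in control hypothalamus, and of these 3 and 3 were also called in the BPA pools. This comparison uses the same control liver reads that led to the choice of the genes. Over the region as a whole, 52.2% of control and 72.9% of BPA liver reads were methylated, which is 20.7 points apart. It was the 1 region of 20 in which that difference exceeded the range between tissues in the BPA pools (16.0 points). The next largest difference within a tissue was 15.2 points, in adipose at chr4:97976847-97977065 in Nfia, where control had 51.0% and BPA 35.8%.

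Markers of cell types were set beside the liver difference. At the 5 hepatocyte genes Alb, Fgb, Apoa1, Ttr and Serpina1a, BPA liver was more methylated than control liver in 5 of 5, by a median of 1.52 percentage points (0.63 to 5.23). Alb held only 1 covered CpG and Apoa1 3, and the differences at marker genes were not tested against counting error. At 5 leukocyte genes BPA liver was higher in 2 of 5 (median -2.22), and at 5 endothelial genes in 2 of 5 (median -0.20). It was also higher at 4 of 5 adipocyte genes (median 0.34) and 3 of 5 astrocyte genes (1.16). The oligodendrocyte list gave 3 of 4 (0.75) and the neuronal list 2 of 5 (-0.10). In adipose the hepatocyte genes were higher with BPA in 4 of 5 (median 3.19), and in hypothalamus in 2 of 5 (-0.12). The part of cell mixture in the Nfic difference was not tested. The same lists were set against the tissue labels in the control pools. The hepatocyte genes were least methylated in liver in 5 of 5 cases. The adipocyte genes were lowest in adipose in 3 of 5 and the neuronal genes in hypothalamus in 3 of 5, but so were the endothelial genes in adipose and the leukocyte genes in hypothalamus (3 of 5 each). The median of the neuronal genes was highest in hypothalamus (28.1%, against 26.2% in adipose and 26.4% in liver), so these lists separated liver and did not settle the other 2 labels.

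Outside Nfic, no CpG of the member genes was called in liver. The smallest adjusted p at Nfix was 0.184, at 84772276 in the hypothalamus-low region described above. At an unadjusted p under 0.05, 69 of 1196 liver sites differed (5.77%, against 4.21% of all tested sites), 27 of them in Nfic, 31 in Nfix, 8 in Nfia and 3 in Nfib. The 69 include all 11 CpGs of the Nfic block that led to the choice of the genes, so this share is no test of the family.

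**Figure D5:**
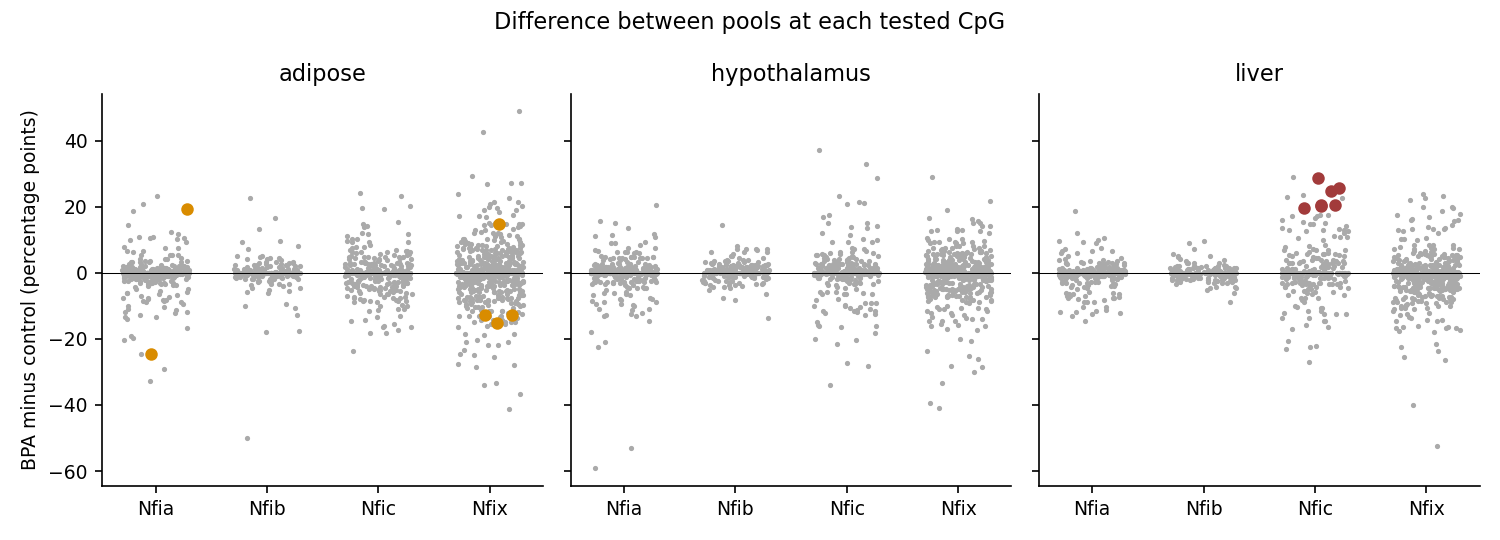
Difference in methylation level between the BPA and the control pool (percentage points, y axis) at each tested CpG of each gene (x axis; horizontal spread within a gene carries no meaning), with a panel per tissue and called sites as large coloured points. The 7 called liver sites all lie in Nfic above 0, adipose has 6 called sites in Nfia and Nfix on both sides of 0, and hypothalamus has 0.

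In adipose, 6 of 1408 sites were called between BPA and control (0.426%, against 0.535% of all tested sites), a share near that of the table. A call between treatments needed an adjusted p under 0.05 from the deposited Fisher test and levels 5 percentage points or more apart. Of the 6 sites, 2 were higher with BPA (0.252% of all tested sites) and 4 lower (0.283%). They lay in Nfia (2) and Nfix (4), and Nfib and Nfic had 0. At an unadjusted p under 0.05, 150 sites of the 4 genes differed (10.7%, against 10.1%). Differences in the adipose table exceeded counting error 1.91 times over, in squared size, against 1.18 in the other tables, and after scaling for this 0 of the 6 remained called.

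The 2 called Nfia sites lay 234 bp apart in the liver-low region at chr4:98004909-98005174 and moved in opposite directions. The CpG at 98004909 was 62.1% methylated of 195 reads in control and 37.6% of 149 in BPA adipose, a fall of 24.5 percentage points (95% interval for counting error 13.9 to 34.3, adjusted p = 0.00749, Fisher's exact test). In hypothalamus it was 53.1% of 32 and 40.5% of 37 reads, and in liver 13.9% of 115 and 10.5% of 76. At 98005143 adipose went from 64.9% of 151 reads to 84.2% of 146, higher by 19.3 points (9.49 to 28.7, adjusted p = 0.0394 by Fisher's exact test). Hypothalamus went the other way there, from 88.6% of 35 reads to 80.6% of 36, and liver had 25.3% in both pools. In adipose both neighbours of this CpG within 100 bp were higher too, by 5.29 and 10.95 points, whereas the single neighbour of 98004909 was 2.11 points higher, against its own direction.

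In Nfix, the CpG at 84754198 was 66.3% methylated of 329 reads in control and 80.9% of 403 in BPA adipose, higher by 14.6 points (8.23 to 21.0, adjusted p = 0.00814 by Fisher's exact test). All 5 neighbours within 100 bp were higher as well, by 6.36 to 14.0 points. The same CpG was 83.2% and 83.0% in the hypothalamus pools and 90.9% and 91.9% in the liver pools. By the same exact test, lower with BPA were 84750999 (83.7% to 68.5%, adjusted p = 0.0191), 84736194 (90.2% to 77.5%, 0.0479) and 84704408 (18.5% to 5.61%, 0.0403). The single neighbour of 84750999 within 100 bp was lower too in adipose, and of the 6 neighbours of 84736194 4 were lower and 2 higher (-8.74 to 3.41 points). At 84736194 hypothalamus had 87.3% and 82.4% and liver 87.2% and 92.1%. The third site, 84704408, lies outside the Nfix body and within Lyl1, a haematopoietic transcription factor gene, and its 3 neighbours within 100 bp were also lower, with differences from -18.7 to -7.73 points. In liver these 4 sites were lower with BPA as well, with -9.93 points at the site and -11.1 to -1.01 at the neighbours, and none was called. In hypothalamus the site was 1.96 points higher with BPA, and its 3 neighbours ranged from -7.24 to 4.95 points (median 4.77).

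Some CpGs had larger differences than the called sites but too few reads. In Nfib, 82337002 was methylated in 100% of 16 control and 50% of 20 BPA adipose reads (adjusted p = 0.0808 by Fisher's exact test). Just above the coverage minimum, at 10 reads in the shallower pool, 6, 6 and 5 sites of adipose, hypothalamus and liver had differences from 0 to 0.588, from -11.2 to 13.5 and from -40.0 to 20.0 points. Just below it, at 9 reads, 8, 8 and 4 sites ranged from -23.3 to 6.67, from -36.1 to 16.7 and from -4.17 to 0.

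In hypothalamus 0 of 1212 sites were called by the same test (0.0058% of all tested sites were), and 42 differed at an unadjusted p under 0.05 (3.47%, against 3.41%). By the authors' own credible difference of at least 5 points, 20 sites of the 4 genes would be called there. The lowest unadjusted p was found in Nfia at 97608957, with 100% of 14 reads in control and 47.1% of 17 in BPA, and its adjusted p was 1. Whether the BPA contrast itself differed between adipose and hypothalamus was tested by comparing the log odds ratios of both tissues (Wald test). It called 0 of 1211 member sites (0.0266% of all tested sites were), and the smallest adjusted p by this Wald test was 0.419, at 98103068 in Nfia. At an unadjusted p under 0.05 there were 61 member sites, and the share of all tested sites at that p was not computed.

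A list of 25 genes known as partners, regulators or targets of nuclear factor I proteins was set beside the family. In adipose 34 of their 4110 tested sites were called (0.827%, against 0.535% of all tested sites), 21 higher (0.252% of all tested sites were) and 13 lower with BPA (0.283%). After scaling for the excess over counting error, 40 of the 10029 calls over all adipose sites were left, and the calls named next carry the same limit. Most of the 34 were in 3 genes, and Prdm16 alone held 952 of the tested sites. Prdm16, the determinant of brown fat identity, had 4 higher and 6 lower sites, and its leading site went from 22.9% to 36.4%. Ski, a corepressor of TGF-beta signalling, had 6 higher and 1 lower, with 26.0% and 52.4% at its leading site. Ebf2, which marks brown preadipocytes, had 4 higher and 1 lower, with 19.3% and 36.2%. In hypothalamus and liver 0 of 3439 and 0 of 3484 sites of the list were called, where the shares of all tested sites were 0.0058% and 0.0259%, too low for a list of this size to show a lack of calls.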

How the data were processed

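Values came from 1 table per tissue, each setting the pool of 3 control samples against the pool of 3 BPA samples. Per the submitters' processing notes, reads were aligned with BSMAP to GRCm38 (mm10). The version, and whether PCR copies were removed, are not given in the sources used here. The deposited read counts give the coverage of each CpG with both strands together (rows of 2 bp). The deposited fraction is the methylated share of those reads. The deposited p-value used comes from a Fisher's exact test of 1 pool against the other, and it was recomputed within 1% at 99.8% to 99.9% of 5000 sites per table. The authors also deposited other columns, a nominal difference and a credible difference of the pools, and the latter served as an alternative. Positions are 1-based.

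Methylated reads were taken as fraction times count. Sites with at least 10 reads in both pools were tested, and p-values adjusted over all nuclear sites by the Benjamini-Hochberg procedure (two-sided, called at adjusted p under 0.05 with at least 5 points between treatments or 20 between tissues). For the Wald test 0.5 was added to each cell. Median coverage per listed site was 144 (control) and 164 reads (BPA) for adipose, 93 and 98 for hypothalamus, and 136 and 127 for liver. Intervals (Clopper-Pearson for levels, Newcombe for differences, 95%) cover counting error only, and reads amplified by PCR without molecular identifiers do not each stand for a molecule. Gene and start positions came from RefSeq tables of GRCm38.p6, matched by symbol (4 of 4 members, 25 of 25 partner genes). They give no exons, so sites are placed in gene bodies only.

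The members, the gene lists and the tests were chosen with earlier results of these data known. Named sites follow a rule: per gene, tissue and direction the smallest adjusted p, runs of called sites, and per tissue pair and gene the largest called difference, plus the 3 partner genes with the most called sites. The further called adipose sites of Nfix (84736194 and 84704408), the CpGs of the start windows and those at 97582015, 82508347 and 82337002 were chosen after their values were seen. The alternatives were other coverage minimums and minimum differences, gene bodies alone, p scaled by the excess over counting error, no deepest sites, the credible difference, BPA pools for control pools and unweighted means. The calling procedure was tested on simulated data. Python 3.11.15, numpy 2.4.6, pandas 2.3.3, scipy 1.17.1 and numba 0.67.0 were used.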

Additional observations from a re-analysis of the deposited data

How the results depend on the processing

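No paired analysis was possible because the tables hold pools of 3 samples, whose columns carry no replicate numbers. For the same reason no sample could be left out, and nothing here measures the spread between animals. Over the 4 genes together, the counts called between treatments stayed within 1.5 times of those reported with 5 or 20 reads as the minimum, no minimum difference or 10 points, gene bodies alone and without the deepest 0.1% of sites. Those called between tissues did so with 20 reads, gene bodies alone and BPA pools. Within single genes they did not always: with BPA pools, Nfic went from 58 to 29 sites between liver and hypothalamus and from 13 to 3 sites lower in liver than adipose. Scaling p by the excess over counting error left 0 higher and 0 lower sites in adipose, and 6 of 7 in liver. By the authors' credible difference, adipose had 20 higher and 36 lower sites, hypothalamus 3 and 17, and liver 21 and 10, against 2.99%, 0.858% and 0.995% of all tested sites, so this measure calls more in every tissue. With 10 points as the minimum between tissues, 102 sites were higher in hypothalamus than adipose and 92 lower in liver than adipose.

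Unweighted means over sites moved the levels, for control and BPA pools, to 22.3% and 21.7% (adipose), 22.3% and 21.8% (hypothalamus) and, for BPA liver, 21.5% at Nfia. At Nfib they were 12.7% and 12.8%, 16.8% and 17.3%, and 14.7% and 14.6% for adipose, hypothalamus and liver. At Nfic they were 27.3% and 26.7%, 27.6% and 28.0%, and 31.2% and 32.0%. At Nfix they were 32.8% and 32.7%, 28.1% and 27.3%, and 37.3% and 36.4%. With at least 20 reads, Nfib had 19.5% and 20.3% in adipose and 27.6% and 27.8% in liver, Nfic 30.7% in BPA adipose and 31.1% in control liver, and Nfix 29.5% in BPA adipose. The cause of these shifts was not tested.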
